A study of Mus musculus with 12 samples.

Results

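Regions that a peak caller listed for FOXP3 in regulatory T cells (Tregs) with Ku70 were set beside those listed in Tregs without it. The comparison shows where each genotype had listed regions. With 1 pooled list for each genotype it cannot measure a change in FOXP3 occupancy. A region entered if it was listed by the peak caller in either genotype and lay on 1 of the 19 mouse autosomes outside the nuclear copy of mitochondrial DNA on chromosome 1. Regions of the 2 lists that shared at least 1 bp were counted as present in both. By this rule 1659 regions were in the WT list only, 484 in the KO list only and 25 in both, together 2168 of the 9381 regions listed in the series. The WT list held 1684 members of 1751 deposited regions and the KO list 509 of 544.

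The series holds chromatin immunoprecipitation sequencing (ChIP-Seq) of FOXP3 and of Ku70 in mouse T cells. WT Tregs came from Foxp3 Yfp-Cre mice and KO Tregs from Xrcc6 fl/fl Foxp3 Yfp-Cre mice on a C57BL/6J background. Both genotypes therefore carried the YFP and Cre cassette in the Foxp3 locus, which restricts the deletion to cells that express Foxp3. Each genotype had 2 immunoprecipitated replicates and 1 input, and the replicates were merged before peaks were called. The methods give a broad age range in weeks for the study's mice, and the age of those used for these lists was not found in the sources used here. With 1 pooled list for each genotype there is no spread between samples, so no test was run and the 95% intervals (Wilson for a share, Newcombe for a difference) cover counting error only. Absence from a list says that the region did not pass the threshold of the peak caller, and is not a measured loss of binding. The methods set this threshold on the p-value without correction over the genome, which is a lenient limit.

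FOXP3 is the forkhead transcription factor that specifies Tregs. It binds forkhead and TG-rich elements, often at enhancers already occupied by RUNX, ETS and other T cell factors, and it associates with RUNX1. Ku70, encoded by Xrcc6, pairs with Ku80 to bind DNA ends and start non-homologous end joining. A peak caller lists stretches where immunoprecipitated reads pile up over the input. It gives each a fold enrichment over the local background, a −log10 p and a −log10 q, where q is the p-value corrected over the genome.

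All 2193 listed members were weak by these measures. Fold enrichment ran from 1.45 to 4.13 in the WT list and from 1.37 to 4.66 in the KO list. The −log10 p ran from 1.30 to 5.86 and from 1.31 to 6.03. The −log10 q was 0, meaning a q-value of 1, in every WT member and in all but 1 KO member, whose −log10 q was 0.0554. The values also stood on a few steps. In the WT list 432 regions (25.7%) had the same fold of 1.84 (folds equal to 3 decimals), and the 6 most frequent folds, 1.84 to 2.44, held 73.5% of the regions. In the KO list 137 regions (26.9%) had a fold of 1.90, and the 6 most frequent, 1.90 to 2.77, held 78.6%. Small differences in fold between 2 regions are thus 1 or a few steps of the caller.

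The sequences that carry the main observations are shown here on the plus strand of mm10. The first 5 are among the 6 regions present in both lists with a single-copy summit and the highest lower fold of the 2 lists, cut to the bases the lists shared. The Dock2 region was added after its values were seen. The last 2 have the highest fold among single-copy regions of up to 300 bp in the WT list only and in the KO list only. Capitals mark the RUNX core TGTGGT and the short forkhead core TGTTTA on either strand, so that they also read ACCACA and TAAACA.
Lef1 intron, chr3:131157547-131157711: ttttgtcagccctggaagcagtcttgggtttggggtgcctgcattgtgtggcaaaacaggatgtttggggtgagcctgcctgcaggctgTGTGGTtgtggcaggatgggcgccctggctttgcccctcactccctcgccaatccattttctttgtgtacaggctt
Bcl2 intron, chr1:106612783-106612926: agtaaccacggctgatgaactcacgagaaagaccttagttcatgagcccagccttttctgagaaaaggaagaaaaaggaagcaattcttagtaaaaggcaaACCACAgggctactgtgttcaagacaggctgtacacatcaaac
intergenic, nearest Rnf19b, chr4:129034987-129035141: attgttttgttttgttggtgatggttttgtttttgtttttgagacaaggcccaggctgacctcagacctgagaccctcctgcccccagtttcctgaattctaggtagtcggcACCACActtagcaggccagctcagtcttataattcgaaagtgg
intergenic, nearest Rplp1, chr9:61707869-61708129: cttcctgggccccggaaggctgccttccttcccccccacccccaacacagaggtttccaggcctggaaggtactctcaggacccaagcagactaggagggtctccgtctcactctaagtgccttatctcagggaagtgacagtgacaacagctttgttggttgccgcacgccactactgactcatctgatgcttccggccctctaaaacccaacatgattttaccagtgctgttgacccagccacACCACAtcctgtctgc
start of Gm28556, nearest coding gene Ptprc, chr1:138191895-138192017: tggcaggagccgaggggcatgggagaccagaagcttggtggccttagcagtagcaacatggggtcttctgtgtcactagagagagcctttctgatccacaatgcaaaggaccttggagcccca
Dock2 intron, chr11:34681865-34682164: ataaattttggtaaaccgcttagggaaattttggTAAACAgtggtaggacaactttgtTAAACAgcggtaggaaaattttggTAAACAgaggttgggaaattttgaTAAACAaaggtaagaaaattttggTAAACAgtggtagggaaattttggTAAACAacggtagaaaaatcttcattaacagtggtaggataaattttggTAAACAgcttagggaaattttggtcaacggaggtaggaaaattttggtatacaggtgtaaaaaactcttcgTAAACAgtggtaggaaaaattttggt
Slc22a30 intron, WT only, chr19:8391833-8391983: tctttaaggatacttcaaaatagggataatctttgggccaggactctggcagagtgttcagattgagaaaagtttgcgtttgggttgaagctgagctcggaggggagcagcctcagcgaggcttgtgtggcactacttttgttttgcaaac
Znrf1 intron, KO only, chr8:111595784-111596036: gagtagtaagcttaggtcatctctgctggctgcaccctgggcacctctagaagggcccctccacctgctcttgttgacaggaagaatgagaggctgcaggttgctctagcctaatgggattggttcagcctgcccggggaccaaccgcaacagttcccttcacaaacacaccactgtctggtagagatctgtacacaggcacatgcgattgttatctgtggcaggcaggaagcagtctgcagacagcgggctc

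Of those first 5 stretches 4 carried a RUNX core.

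Regions present in both lists were few and stronger than the rest. They were 1.48% of the WT list (25 of 1684, interval 1.01 to 2.18%) and 4.91% of the KO list (25 of 509, 3.35 to 7.15%). Each WT region met exactly 1 KO region. How many regions pass the caller also depends on sequencing depth, which was not analysed here. The summits, the points of highest pile-up, lay 1 to 365 bp apart with a median of 24 bp, and 19 of the 25 pairs were within 50 bp. The KO list covered 93.4 kb of the autosomes. The Treg Ku70 list covered 957 kb, and 22 WT FOXP3 regions (1.31%, 0.864 to 1.97%) overlapped it. The Tconv Ku70 list covered 334 kb and was met by 16 (0.950%).

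Median fold in the WT list was 2.29 for the 25 present in both and 2.00 for the 1659 in the WT list only. In the KO list it was 2.62 for the 25 and 2.08 for the 484. The median −log10 p was 2.44 against 1.78 in the WT list and 2.49 against 1.40 in the KO list.

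**Figure D1:**
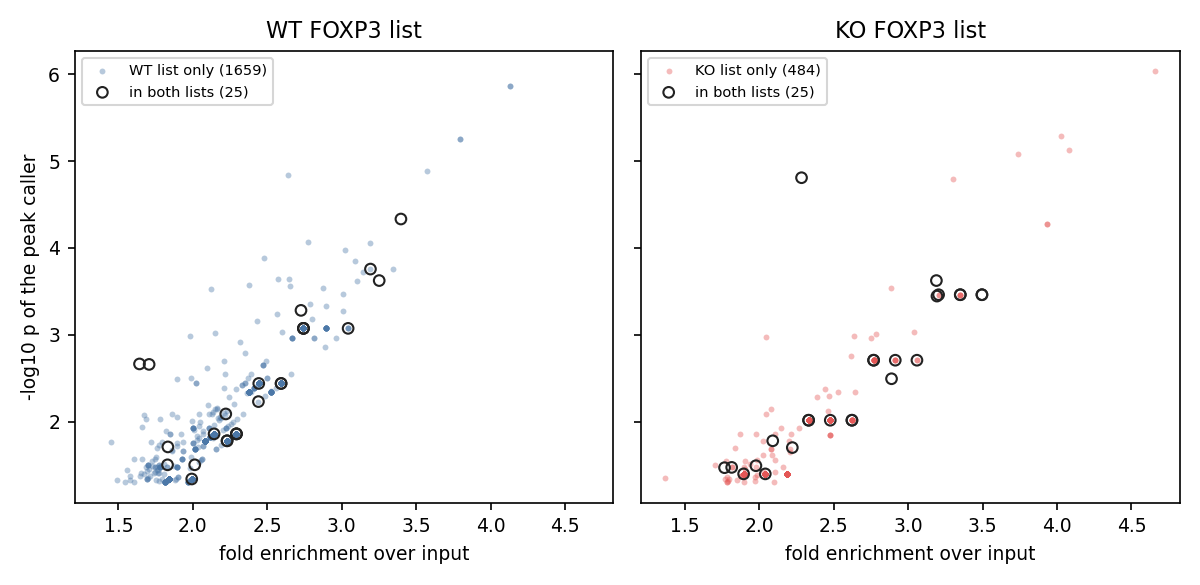
Fold enrichment over input (x axis) and −log10 p of the peak caller (y axis) of each member, in the WT list (left) and the KO list (right). Filled points are regions of 1 list only and open circles the 25 regions in both. Values stack on a few steps, and the highest −log10 p values in each list (5.86 and 6.03) belong to regions absent from the other.

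The share present in both lists was higher among stronger regions. Below a −log10 p of 2 it was 0.735% in the WT list (10 of 1361) and 2.05% in the KO list (7 of 342). At 3 or more it was 10.3% (8 of 78, 5.29 to 19.0%) and 33.3% (8 of 24, 18 to 53.3%). A summit was called single-copy when its 31 bases occur once in the genome. Among single-copy regions with a −log10 p of 3 or more, 6 of 31 WT regions (19.4%) and 8 of 16 KO regions (50%, 28 to 72%) were also in the other list. Among those of 2 or more copies it was 2 of 47 and 0 of 8. With 0 of 8, the interval reached 32.4%.

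**Figure D2:**
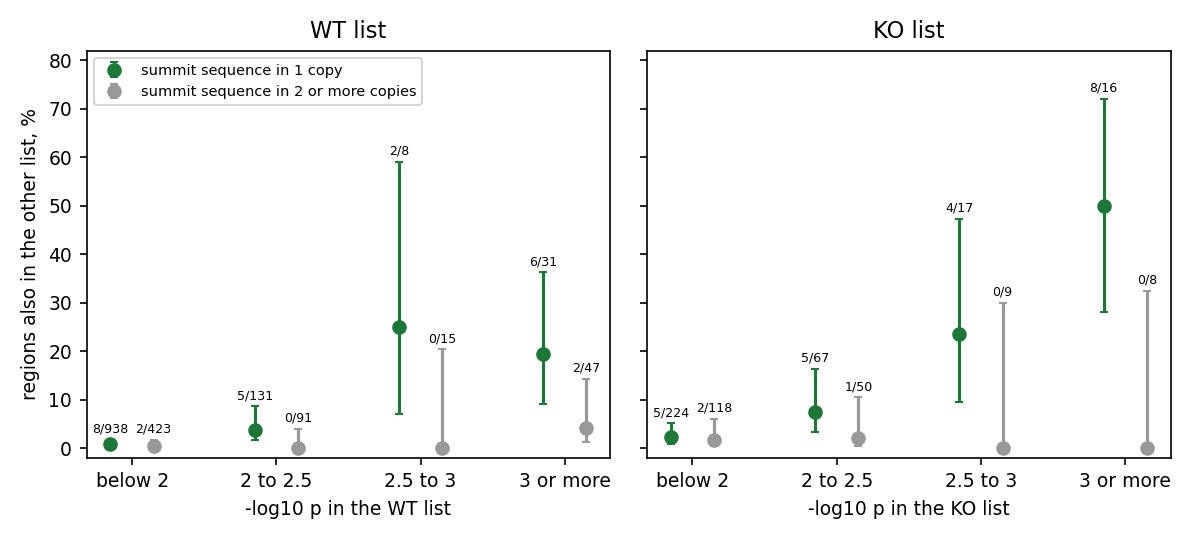
Share of regions also in the other list (y axis, %) by −log10 p in the region's own list (x axis), for the WT list (left) and the KO list (right). Green points are regions with a single-copy summit and grey points those with 2 or more copies. Bars are 95% Wilson intervals, and the counts above give regions shared of all. Shares climb to 8 of 16 among single-copy KO regions with −log10 p of 3 or more.

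Of the 25 regions in both lists, 10 lay in introns, 7 within 3 kb of a transcription start and 8 between genes, with the same class in both lists. Inside or within 3 kb of a protein-coding gene lay 13, and these named 14 genes. Their values are given first for Lef1, Bcl2, Cdk6 and Maml3. Lef1, a TCF family factor of naive T cells, had a region in an intron with fold 3.19 in WT and 3.50 in KO. Bcl2, the anti-apoptotic founder of its family, had an intronic region with folds of 3.04 and 3.50. Cdk6, a kinase that drives the G1 phase, had one at 2.23 and 3.06. Maml3, a coactivator of Notch, had one at 2.74 and 2.48. The summits in Lef1 were 1 bp apart, in Cdk6 5 bp, in Bcl2 11 bp and in Maml3 27 bp.

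The other genes follow. Rnf157, an E3 ubiquitin ligase gene, had the largest drop from WT to KO, with folds of 3.40 and 1.90. The region at Ccni, the gene of cyclin I, and the neighbouring 2010109A12Rik had folds of 1.99 and 2.77. Mkln1, which encodes muskelin of the CTLH ubiquitin ligase, had a promoter region at 2.14 and 2.77. The lncRNA gene Lncpint had an intronic region at 2.44 and 2.91. Mb, the myoglobin gene, had a region at 2.44 and 3.19 that was also in the Treg Ku70 list, as was the region at Ttc41 (3.25 and 2.33), whose summit sequence is in 2 copies. Alpk2, an alpha-kinase gene, stood at 2.29 and 2.33, and Gm47996 at 2.22 and 1.82. C130026I21Rik, with 8 copies of the summit sequence, stood at 2.73 and 2.09.

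The 12 regions away from protein-coding genes included 1 at 16.3 kb from a start of Ptprc, the gene of the CD45 phosphatase, with folds of 2.59 and 2.89. It lay within 3 kb of a start of Gm28556, which is not annotated as coding. Another lay 23.2 kb from Rnf19b (2.74 and 3.21) and 1 at 57.8 kb from Saraf (2.29 and 2.04), a regulator of store-operated calcium entry. The region near Igf2bp3 (2.59 and 2.62) was 3.80 kb from a start of that gene. A further region, in the KO list only, lay 2.67 kb from the same gene's start (2.77). The most remote shared region, on chromosome 15, was 486 kb from the nearest coding start and had folds of 2.29 and 3.35.

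Across all 25 the KO fold was above the WT fold in 18 and below it in 7. Frequent folds of the KO list lay slightly above those of the WT list, such as 1.90 and 2.33 beside 1.84 and 2.29. A gap of that size, as at Alpk2 (2.29 and 2.33), is also counted among the 18. With single-copy summits it was above in 17 of 21. The ratio of KO to WT fold ran from 0.558 at Rnf157 to 1.87 at the region 14.6 kb from Gm21149. Each list was scored against its own input, so these ratios compare 2 pooled lists and were not normalised for depth.

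**Figure D3:**
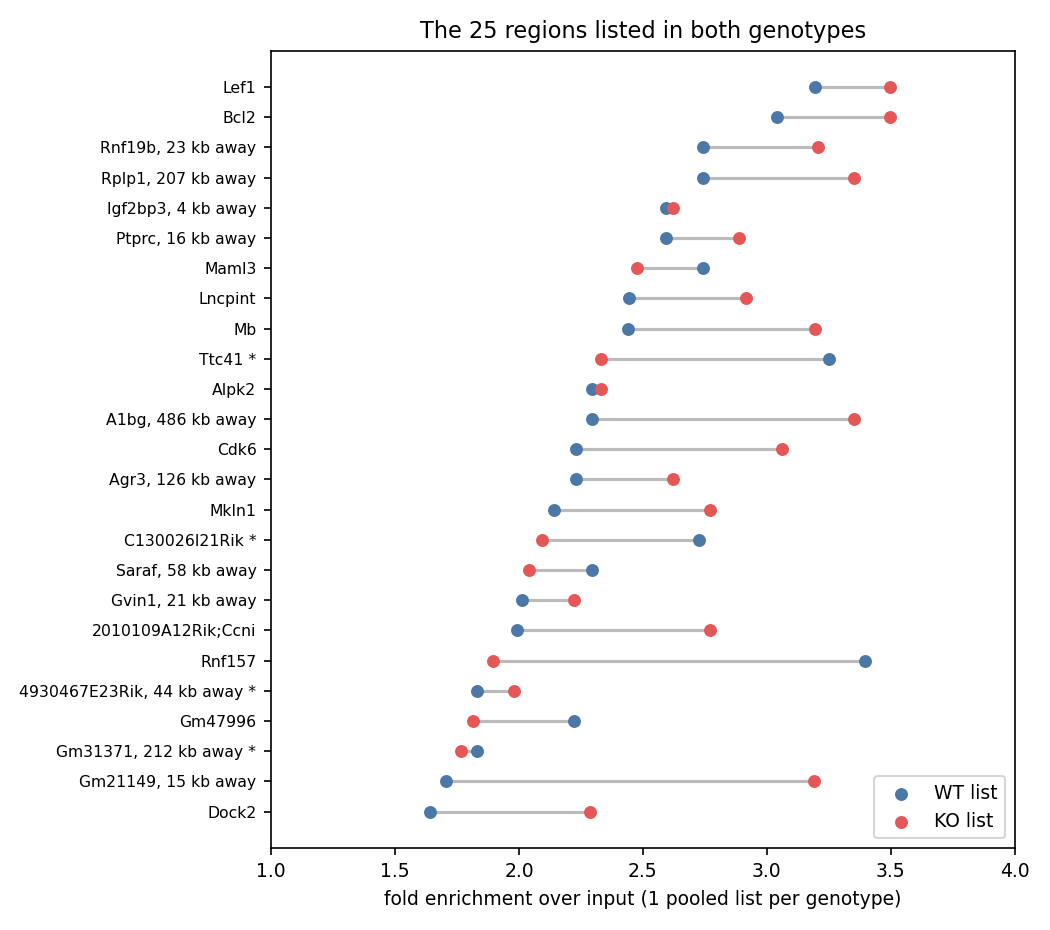
Fold enrichment over input (x axis) in the WT list (blue) and the KO list (red) for each of the 25 regions in both lists, labelled by gene or by the nearest coding gene and its distance. Grey lines join the 2 values of a region, and an asterisk marks a summit sequence with 2 or more copies in either list. KO lies right of WT in 18 of 25, with the widest gaps at Rnf157, near Gm21149 and near A1bg.

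The Dock2 region differed in sequence from all others. Dock2 is a guanine nucleotide exchange factor of Rac that drives lymphocyte migration. The intronic stretch had a fold of 1.64 with a −log10 p of 2.67 in WT, and a fold of 2.28 with a −log10 p of 4.81 in KO, the highest −log10 p of any shared region. It held the short forkhead core 8 times, and 6 of these extend to the full core TGTTTAC. Over all 2193 listed regions 1915 had no short core, 259 had 1, 15 had 2 and 2 had 3, and only the Dock2 region, once in each list, had 8. The copies stand in a local repeat, in which 68.6% of bases match those 48 bases further on. Its summit sequences are nevertheless single-copy in the genome.

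In regions of 1 list the forkhead core was found at similar shares at summits and beside them. TGTTTAC lay within 50 bp of 1.45% of WT-only summits and in 1.51% of windows 1 kb away, and of 1.86% of KO-only summits against 2.07%. A run of 3 tandem copies of TTTG, a repeat FOXP3 is known to bind, were within 50 bp of 4 WT-only summits (0.241%) and 1 KO-only summit (0.207%). Their windows had 9 and 3.

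Another 9 words of T cell factors were searched after the lists had been examined, over whole single-copy regions and over windows of the same width 1 kb to either side. The 10 words in all overlap in part, since each longer core contains a shorter one. The RUNX core TGTGGT was in 13 of the 21 WT regions present in both lists (61.9%, 40.9 to 79.2%) and in 2 of their 42 windows (4.76%, 1.32 to 15.8%). Measured on the KO regions it was in 13 of 22 (59.1%) and in 5 of 44 windows (11.4%). KO-only regions had it in 65 of 302 (21.5%, 17.3 to 26.5%) against 12.7% of windows (10.3 to 15.6%). WT-only regions had it in 149 of 1087 (13.7%, 11.8 to 15.9%) against 12.9% of windows. Over the 300-bp RefSeq promoters (GRCm38) of 32851 entries it was in 16.8%.

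**Figure D4:**
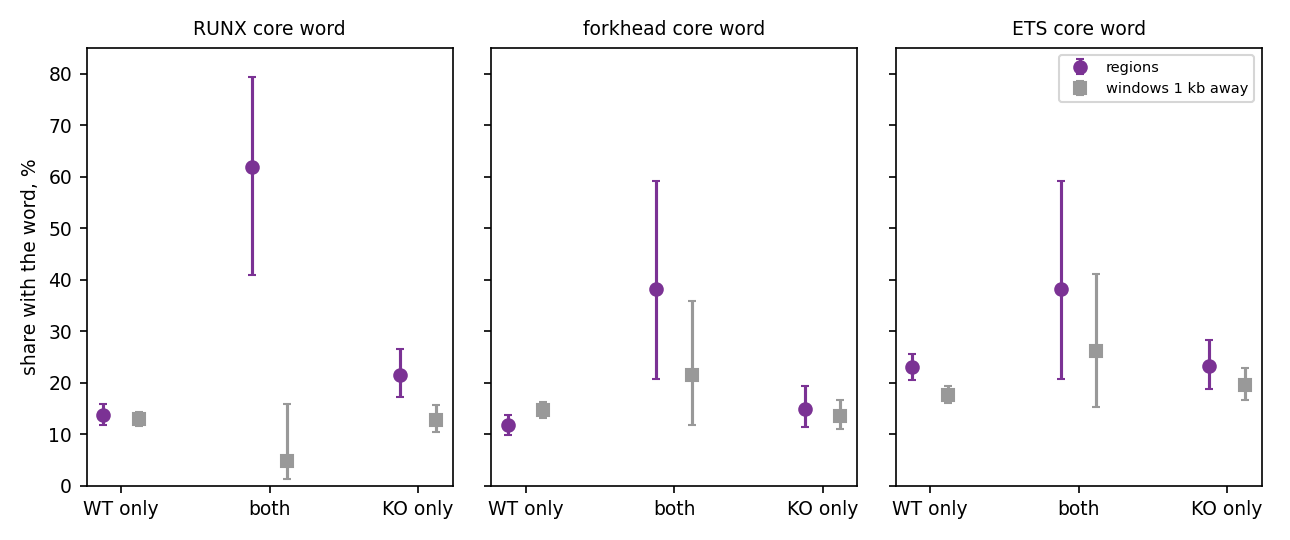
Share of single-copy regions (purple circles) and of equally wide windows 1 kb to either side (grey squares) that hold the RUNX, short forkhead or ETS core word (y axis, %), by class of region; the shared class uses the WT regions. Bars are 95% Wilson intervals. For the RUNX word regions and windows separate at the shared regions (61.9% and 4.76%) and at KO-only regions (21.5% and 12.7%).

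The RUNX core was more frequent in stronger regions of 1 list too. In the WT list only it was in 12.9% of single-copy regions below a −log10 p of 2, in 15.9% from 2 to 2.5 and in 29.0% (9 of 31, 16.1 to 46.6%) at 2.5 or more. The same order held in the KO list only, where the shares were 18.7%, 27.4% and 33.3% (7 of 21, 17.2 to 54.6%). Windows beside the WT-only groups held it in 13.2%, 11.5% and 9.68%, and those beside the KO-only groups in 12.8%, 10.5% and 19.0%. In the strongest group the intervals of the windows were 4.51 to 19.5% in WT only and 10.0 to 33.3% in KO only. Both overlapped those of the regions. Where present, the core lay a median of 45 bp from the WT summit in shared regions whose median half-width was 98.5 bp. The distances ran from 11 bp at Lef1 to 219 bp near Gvin1. Whether the core lay nearer to the summit than a randomly placed word was not tested. Of the 13, 4 also had the short forkhead core. RUNX was not the only word to differ in the strongest group, at 2.5 or more. There the short forkhead core was in 38.1% of KO-only regions (8 of 21, 20.8 to 59.1%) against 19.0% of windows. In WT-only regions it was in 3.23% (1 of 31, 0.572 to 16.2%) against 9.68%. The ETS core AGGAAG was in 42.9% of KO-only regions (9 of 21) against 14.3%, and in 25.8% of WT-only regions (8 of 31) against 17.7%. Of these 21 KO-only regions 10 were in promoters. Over the RefSeq promoters above the ETS core was in 35.4% and the short forkhead core in 13.4%. Those promoters were not matched to the regions in width.

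The longer TGTGGTT, which contains the RUNX core, was in 33.3% of shared WT regions against 2.38% of windows. The ETS core AGGAAG was in 38.1% of shared regions against 26.2% of windows, in 23.0% of WT-only regions (20.6 to 25.6%) against 17.7% (16.1 to 19.3%) and in 23.2% of KO-only regions against 19.5%. The short forkhead core was in 38.1% against 21.4%, in 11.7% against 14.6% and in 14.9% against 13.6%, in the same order. The AP-1 word TGANTCA was in 4.76% of shared, 5.15% of WT-only and 5.30% of KO-only regions. The E-box CAGCTG was in 10.7% of WT-only regions (8.97 to 12.6%) against 7.22% of windows (6.21 to 8.39%), so that its intervals separated in WT-only regions where those of the RUNX core did not. In KO-only regions it was in 9.27% (6.49 to 13.1%) against 4.97% (3.50 to 7.0%), and in shared regions in 9.52% against 19.0%. The TCF/LEF core CTTTGA was in 23.8% of shared regions against 7.14% of windows, in 13.4% of WT-only regions against 14.0% and in 15.9% of KO-only regions against 12.3%. The GATA core AGATAA was in 14.3% against 4.76%, in 8.74% (7.20 to 10.6%) against 12.4% (11.1 to 13.8%) and in 10.9% against 13.1%, in the same order. Its intervals in WT-only regions thus separated too, with the word rarer in regions than in windows. Median GC of single-copy WT-only regions was 46.1%, against 41.4% at 1 kb away. The words were not compared at equal GC, and whether GC accounts for their shares was not tested. A word is a match of letters, not a site shown to be bound.

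Base composition and copy number were compared next. Median GC was 45.9% in WT-only and 44.7% in KO-only regions, above the 41.0% and 40.7% of windows 1 kb away, and was 48.2% in the shared WT regions against 46.1%. Bases masked as repeats made up a median of 18.6%, 16.6% and 7.26% of WT-only, KO-only and shared WT regions. Summit sequences in 2 or more copies made up 34.5% of WT-only (32.2 to 36.8%) and 37.6% of KO-only regions (33.4 to 42.0%), and 16.0% of shared WT regions (6.40 to 34.7%). KO only exceeded WT only by 3.12 points (−1.68 to 8.06).

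KO-only regions lay nearer to genes than WT-only regions. They were in or within 3 kb of a protein-coding gene in 43.2% (209 of 484) and WT-only regions in 36.0% (598 of 1659), a difference of 7.14 points (2.20 to 12.1). The median distance to the nearest coding start was 44.0 kb for KO only, 53.9 kb for WT only and 21.4 kb for the shared regions. Summits between genes made up 45.0% of KO-only (40.7 to 49.5%) and 51.0% of WT-only regions (48.6 to 53.4%), a difference of −5.95 points (−10.9 to −0.891), which was −10.4 points (−16.5 to −4.08) among single-copy regions. All autosomal bases classed the same way were 46.8% intergenic. By protein-coding genes alone, 58.1% of KO-only regions and 65.3% of WT-only regions were intergenic, beside 56.5% of all bases. By that measure KO-only regions were near the share of all bases and WT-only regions were more often intergenic. Promoters, within 3 kb of any annotated start, held 18.2% of KO-only regions and 15.1% of WT-only regions, a difference of 3.11 points whose interval of −0.544 to 7.14 includes 0. Among single-copy regions the promoter difference was 5.39 points (0.870 to 10.5), an interval above 0. They held 28% of the shared regions (14.3 to 47.6%) and 16.0% of all bases. Introns held 34.7%, 32.2% and 40% of KO-only, WT-only and shared regions.

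**Figure D5:**
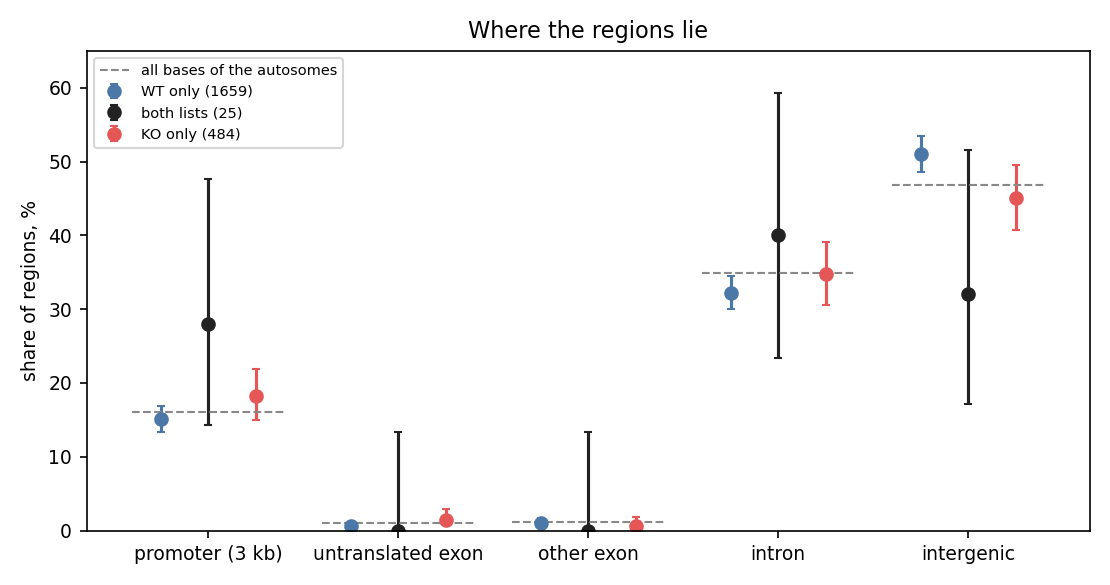
Share of regions (y axis, %) by annotation of the summit, for regions in WT only (blue), in both lists (black) and in KO only (red), with 95% Wilson intervals. Dashed lines give the same classes over all autosomal bases. WT-only regions are 51.0% intergenic and KO-only regions 45.0%, and the shared 25 have wide intervals throughout.

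The classes were also compared by strength, in a division made after the values were seen, and their promoter shares stood far apart in the strongest group alone. The limit of 2.5, also used for the words above, does not cut the 2 lists at the same step. A frequent −log10 p of 2.44 in WT falls below it, and one of 2.71 in KO falls above it. Among single-copy regions with a −log10 p of 2.5 or more, 10 of 21 KO-only regions were in promoters (47.6%, 28.3 to 67.6%) and 5 of 31 WT-only regions (16.1%, 7.09 to 32.6%). The difference was 31.5 points (6.11 to 53.4). Between genes lay 2 of the 21 KO-only regions and 18 of the 31 WT-only regions, a difference of −48.5 points (−65.5 to −22.6). From 2 to 2.5 the promoter shares were 19.4% in KO only and 18.3% in WT only, and below 2 they were 15.5% and 12.4%.

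Of the 8 strongest KO-only regions at coding genes, 6 stood in promoters. Slc8a3, a sodium and calcium exchanger gene, led with a fold of 4.66, but the intronic summit has 21 copies. Znrf1, an E3 ubiquitin ligase gene, followed with an intronic region at 4.08. Ect2, a gene needed for cytokinesis, had a promoter region at 3.93, 0.235 kb from a start. A region of equal fold lay inside the annotated span of Ccr9, the gene of the chemokine receptor of gut-homing lymphocytes, and 0.003 kb from a start of Lztfl1, a ciliary trafficking gene. Zbtb5, Lrrc61 and Gramd1a, the last a sterol transfer protein gene, had promoter regions of 3.35.

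The strongest WT-only regions at coding genes lay mostly in repeated sequence. Fer, a tyrosine kinase gene, and Slc22a30, an organic ion transporter gene, each had an intronic region at 3.79. The Fer summit has 2532 copies and the Slc22a30 summit 1. Speer4e stood at 2.64 with 8 copies, Sprr2a2, of the small proline-rich family, at 2.78 with 3, and Gm10251 at 2.48 with 14. Abcg2, the efflux transporter gene, had a promoter region at 3.19 with 2 copies, and Zfp993 an intronic region at 3.09 with 224. The region at 1700017N19Rik and 4930430F08Rik, at 3.19, was single-copy. Of these 8 summits 2 were single-copy, against 7 of the 8 leading KO-only summits.

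Target genes overlapped more than regions did. Of 20780 autosomal protein-coding genes, 577 (2.78%) had a WT region inside or within 3 kb and 223 (1.07%) a KO region. Both lists marked 46, which is 20.6% of the KO genes (15.8 to 26.4%) and 7.97% of the WT genes (6.03 to 10.5%). Only 14 of the 46 were marked through a shared region, and 32 through different regions of the same gene. Those 46 genes had a median length of 277 kb, against 120 kb for all WT genes, 113 kb for all KO genes and 17.6 kb for all coding genes. Of genes over 300 kb, 29.8% had a WT region and 9.07% a KO region, against 0.674% and 0.261% of genes up to 10 kb.

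Genes of T cell biology, FOXP3 cofactors and chromatin regulators, the BCL2 family and double-strand break repair were then counted in lists. These 8 lists, called T cell lists here, hold 264 autosomal genes with a median length of 38.0 kb. A WT region was at 11 (4.17%, 2.34 to 7.31%) and a KO region at 11, and 4 had both, set against the 2.78% and 1.07% of all coding genes. Coding genes of 30 to 100 kb had a WT region in 3.16% and a KO region in 1.11%. Of 11 WT regions at these genes 9 were intronic and 1 in a promoter, and of 12 KO regions 6 were intronic and 6 in promoters. By starts of coding genes alone, 0 of the 11 and 3 of the 12 were in promoters, and with numbers this small no difference is drawn. Of those 6 promoter regions the ones at Bach2, Gata3 and Ccr9 were near a transcript start of a coding gene. At Ccr9 that start belonged to Lztfl1, 0.003 kb away, and the region lay 39.2 kb from the start of Ccr9 itself. The regions at Pik3cd and Tcf12 were near starts of non-coding genes inside the listed gene.

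The core Treg genes, such as Il2ra and Ctla4, were without a region in either list, 0 of 35. Within 50 kb 3 had a WT region, Fgl2, Il12a and Klrg1, and none a KO region, where 7.46% and 2.69% of all coding genes had one at that distance. Cytokine receptors and JAK/STAT genes also had 0 of 31 in each. Markers of other cell types had 0 of 25 within 3 kb and within 50 kb. Within 3 kb, 2.78% of all coding genes had a WT region and 1.07% a KO region. Median gene lengths of the core Treg, cytokine and marker lists were 15.1, 27.4 and 10.7 kb. Coding genes of 10 to 30 kb had a WT region in 0.907% and a KO region in 0.518%. Counts of 0 in lists this short are near those shares, and no lack of FOXP3 at these genes is read from them.

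Transcription factors of T cells had 3 of 55 with a WT region (5.45%) and 5 with a KO region (9.09%). Besides Lef1, Tox, a factor of thymic and exhausted T cells, was marked in both lists by separate intronic regions, at 97.8 kb from its start in WT (2.26) and at 136 kb in KO (2.04). Runx2, of the RUNX family, was marked in WT only (1.99). Bach2, a repressor that restrains effector differentiation, had a KO-only region at 2.33 that lay 11.9 kb from the start of the gene and was classed as promoter through another annotated transcript start. Gata3, the factor of type 2 helper cells, had one at 2.04, 1.88 kb from its start. Tcf12, which encodes the E protein HEB, had one at 1.90.

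T cell receptor and costimulation genes had 4 of 48 in WT (8.33%) and 3 in KO (6.25%), with no gene in common. Those in WT only included Prkcq, the PKC-theta gene, at 2.59 and Themis, a thymocyte signalling adaptor gene, at 2.29. Those in KO only included Pik3cd, the leukocyte PI3K catalytic subunit, at 2.04 and Camk4, a calcium-dependent kinase gene, at 1.90.

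The remaining lists had 1 or 2 genes each. Bcl2 was the 1 of 18 BCL2 family genes marked, with the shared region above and a second, KO-only intronic region at 2.19. Migration genes had Dock2 in both and Ccr9 in KO only, of 26. Among FOXP3 cofactors and chromatin regulators, 1 of 30, the deacetylase Hdac9, had a WT region (2.29) and none a KO region. Of 21 genes of double-strand break repair, the process in which Ku70 acts, Rad50 had a WT region (1.84) and none a KO region.

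The classes met the Ku70 lists at low and overlapping shares. The Treg Ku70 list held 1.21% of WT-only regions (20 of 1659, 0.782 to 1.85%), 2.27% of KO-only regions (11 of 484, 1.27 to 4.02%) and 2 of the 25 shared regions (8%, 2.22 to 25%). KO Tregs lack Ku70, so the KO-only overlap compares FOXP3 in KO cells with Ku70 in WT cells.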

How the data were processed

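FOXP3 ChIP-Seq peak lists of WT and KO Tregs were used. Per the methods and labels, the authors checked reads with FastQC, trimmed with Trim Galore, mapped to mm10 with Bowtie2 and dropped duplicates (Picard). They merged the 2 replicates of each genotype and then ran MACS2 with a cutoff on the uncorrected p-value. Versions are not given in the sources used here. The deposited narrowPeak tables give a fold ratio over background, −log10 p and q-values, a score and summit offsets; sequencing depth was not analysed here. Region names inside the KO table read CKO, and the labels were followed. Rows with identical coordinates were collapsed to the strongest summit, which left 1751 and 544 regions, of which 67 and 35 were excluded (chromosome X, chromosome Y, mitochondrial and unplaced sequence, nuclear mitochondrial copy). Summits were annotated with GENCODE vM21 and sequences were read from GRCm38 (pysam 0.24.0). Summits within 3 kb of a start were classed as promoter. The overlap code was tested on simulated data. Members and gene lists were chosen with earlier results of these data known. Named genes are those at regions of both lists, the 8 highest −log10 p regions per class in or within 3 kb of a coding gene, listed genes with a region and genes with 3 or more regions. Some genes and 1 sequence that meet these rules are not reported here. Alternatives are given in the closing section.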

Additional observations from a re-analysis of the deposited data

How the results depend on the processing

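Of 57 recomputed values, 37 stayed within the 95% interval of the share, the quartiles of the median or 1.5 times the count. The others follow. Requiring a −log10 p of 2 in both lists raised the share of WT regions in the KO list to 3.72% and that of KO regions in the WT list to 7.19%, the promoter share to 18.2% in WT only and 22.2% in KO only, and lowered the gene overlap to 12.1%. A WT list cut to the size of the KO list gave 3.54% of WT regions. A 1 kb promoter held 4.88% of WT-only and 6.82% of KO-only regions, beside 6.28% of all bases. It left 55.2% of WT-only regions and 50.1% of all bases intergenic. With protein-coding starts alone the promoter shares were 5.67% and 9.92% and the intergenic shares 65.3% and 58.1%. All bases classed that way were 9.88% promoter and 56.5% intergenic. Single-copy summits gave a promoter share of 13.2% in WT only, an intergenic share of 39.1% in KO only and a gene overlap of 16.7%. By all annotated genes the overlap was 21.0% of KO genes; it was 38.4% by nearest coding gene and 11.7% by starts within 3 kb. Masked bases within 50 bp of the KO summits of shared regions had a median of 21.8%. Within 50 kb, 28 of the 264 genes in the T cell lists had a WT region, where 7.46% of all coding genes had one. The cause of each shift was not tested, beyond the smaller number of regions or wider distance that the alternative itself sets. No paired analysis was possible because replicates were pooled before peaks were called, and for the same reason leaving out each replicate could not be done. With most folds on a few steps and nearly every q-value at 1, the lists resolve single regions poorly.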

Other observations

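Long genes of the nervous system and of common fragile sites were 22 of the 577 WT target genes and 8 of the 223 KO target genes. Of 40 such genes, with a median length of 1130 kb, 22 (55%) had a WT region and 8 (20%) a KO region, and 6 had both. The share of all coding genes over 300 kb was 29.8% in WT and 9.07% in KO. Dlg2, a synaptic scaffold gene, had 1 WT and 3 KO regions, Lsamp, a neuronal adhesion gene, 2 and 2, and Ntm, of the same adhesion family, 1 and 3. Rbfox1, a splicing factor gene, had 3 KO regions and no WT region, whereas Fgf14, Epha6 and Immp2l had 3 WT regions each and no KO region. Adamtsl1, Fer, Kynu, Macrod2, Npas3 and Sntg1 had 2 WT regions and 1 KO region each. None of these regions was shared between the lists.

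Regions also gathered in gene families with near-identical copies, where reads may be split between copies. C130026I21Rik had 8 regions in WT and 1 in KO, the latter shared, and all 9 summits are in 2 or more copies. Sprr2a2 had 4 WT regions, all multi-copy. The 15 zinc finger genes Zfp978 to Zfp993 on chromosome 4 held 11 WT and 8 KO regions, of which none was shared and 15 of 19 had multi-copy summits. A WT region was at 8 of these genes, a KO region at 7 and both at 3. Within them Zfp985, Zfp987 and Zfp993 had 3 regions each. Chromosome 4 had the highest density of regions in both lists, 0.973 per Mb in WT and 0.388 in KO. With single-copy summits alone it stayed highest in KO (0.217), whereas in WT (0.546) chromosomes 17 (0.556) and 18 (0.583) were above it. Olfactory receptor genes were marked at 10 of 1127 in WT (0.887%) and 3 in KO (0.266%), below the share of all coding genes and beside 0.674% and 0.261% of coding genes up to 10 kb.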
